A study of Mus musculus with 6 samples.

Results

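The miR-99, miR-100 and miR-125 family consists here of 5 mature mouse miRNAs, listed on the array as mmu-miR-99a-5p, mmu-miR-99b-5p, mmu-miR-100-5p, mmu-miR-125a-5p and mmu-miR-125b-5p. They were taken by name from the 1881 mouse miRNAs on the array, and all 5 were among the 388 miRNAs bright enough to be tested. The samples were tumours of C57BL/6 mice inoculated in the right flank with 0.1 ml of Hepa1-6 cells, a mouse hepatoma line. In the GLE group (n = 3 mice), mice received a drug that the labels name only by these letters, with a daily dose of 0.023 g stated for 10 g of body weight and no duration. In the model group (n = 3 mice), which the labels also call untreated, each mouse received 0.2 ml of 0.9% saline once daily over 28 days. The labels give an age of 28 d for every sample and name no genotype or transgene. RNA of each tumour was read on an Agilent one-colour array of its own. Below, tumours carry the replicate numbers of the labels, and the labels state no pairing of GLE with model mice.

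All tumours came from 1 cell line, and a whole tumour piece also holds cells of the host. In such bulk samples, fewer cells of a type and less RNA per cell cannot be told apart. Of the hepatocyte markers, miR-122-5p, the most abundant miRNA of adult liver, passed detection in 1 GLE and 1 model tumour, and miR-802-5p and miR-101b-3p in none. The less specific miR-192-5p and miR-148a-3p were detected on all 6 arrays, and miR-194-5p on 5. All 6 arrays lay on 1 slide and were read in 1 scan. The GLE arrays occupied one row of the slide and the model arrays the other, so row and group cannot be told apart. Before scaling, the 75th percentile of the probes detected on all arrays was 203 to 364 intensity units in GLE tumours and 211 to 313 in model tumours. The number of arrays limits the precision, with a median 95% interval of ± 0.54 (log2) for a difference.

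In mammals these miRNAs are encoded in clusters that pair a miR-99 or miR-100 gene with a let-7 gene and a miR-125 gene, an arrangement that is ancient among animals. miR-125 is the vertebrate relative of lin-4 of the worm Caenorhabditis elegans, which, like let-7, times developmental transitions. miR-99 and miR-100 restrain growth through targets that include MTOR, while miR-125 members act on apoptosis, immune and differentiation genes. In human hepatocellular carcinoma, miR-99a, let-7c and miR-125b are often reported as lower than in liver.

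The mature sequences show the kinship on which the family rests, and are given with the seed (bases 2 to 8), the part that pairs with target mRNAs, in capitals. All were matched by name in RefSeq on build GRCm38.p6, and all the listed copies of the members lie on the plus strand.
miR-99a-5p: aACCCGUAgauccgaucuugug
miR-100-5p: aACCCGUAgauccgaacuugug
miR-99b-5p: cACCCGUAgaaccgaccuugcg
miR-125a-5p: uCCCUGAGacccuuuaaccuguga
miR-125b-5p: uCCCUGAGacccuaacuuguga
The first 3 share the seed ACCCGUA, and both miR-125 members share the seed CCCUGAG. Counted from the first base, miR-99a-5p and miR-100-5p differ by the single substitution U16A. From miR-99a-5p to miR-99b-5p there are 4 substitutions, A1C, U11A, U16C and U21C. miR-125a-5p (24 bases) and miR-125b-5p (22 bases) are identical over their first 13 bases.

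The genes form 3 clusters. miR-99a-5p lies at chr16:77598940-77598961, with let-7c-1 next to it (a gap of 674 bases) and the miR-125b-2 copy at chr16:77646279-77646300. miR-100-5p lies at chr9:41531437-41531458 and the other miR-125b copy at chr9:41581940-41581961, both inside the long noncoding RNA gene Mir100hg, with let-7a-2 between them. The cluster on chromosome 17 is compact and lies inside the gene Spaca6. It holds miR-99b-5p at chr17:17830194-17830215 and miR-125a-5p at chr17:17830817-17830840 with let-7e between them, and spans 683 bases, against 47.4 kb on chromosome 16 and 50.6 kb on chromosome 9. The mature miR-125b-5p of the 2 copies is the same molecule, so an array cannot assign it to chromosome 9 or 16. The same holds for the let-7 partners of those clusters: let-7c-5p is also made on chromosome 15 and let-7a-5p on chromosome 13.
let-7c-5p: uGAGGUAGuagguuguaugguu
let-7a-5p: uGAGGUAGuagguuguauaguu
let-7e-5p: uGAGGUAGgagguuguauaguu
These let-7 partners share their own seed, and from let-7a-5p the others differ by A19G in let-7c-5p and by U9G in let-7e-5p.

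Each member was read by 2 probes of different length, with 15 spots per probe on each array. The probes of miR-99a-5p and miR-100-5p are shown because they differ at 1 base only, in capitals.
miR-99a-5p probe: cacaagAtcggatctacgg
miR-100-5p probe: cacaagTtcggatctacgg
All 19 bases of each probe pair with its own target, at bases 4 to 22, and 18 of the 19 pair with the other miRNA. How much of each signal came from the other molecule was not tested. The next closest target among the members, miR-99b-5p, left 3 mismatches with either probe. The probes of miR-125a-5p and miR-125b-5p left at least 5 mismatches with each other's target when aligned without gaps.

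All 10 probes were well above background on all 6 arrays, at 98.0 to 7709 intensity units. The spots of a probe varied by a coefficient of variation of 1.37% to 6.76% within an array. Across the arrays, the values of the 2 probes of a member correlated at r = 0.896 (miR-99a-5p) to 0.997 (miR-125b-5p), as a description of repeat readings of the same 6 RNAs. The probes of miR-99a-5p disagreed on the sign of its group difference, at 0.066 with the longer and −0.020 with the shorter probe. Those of miR-100-5p gave −0.43 with the longer and −0.51 with the shorter probe.

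**Figure D1:**
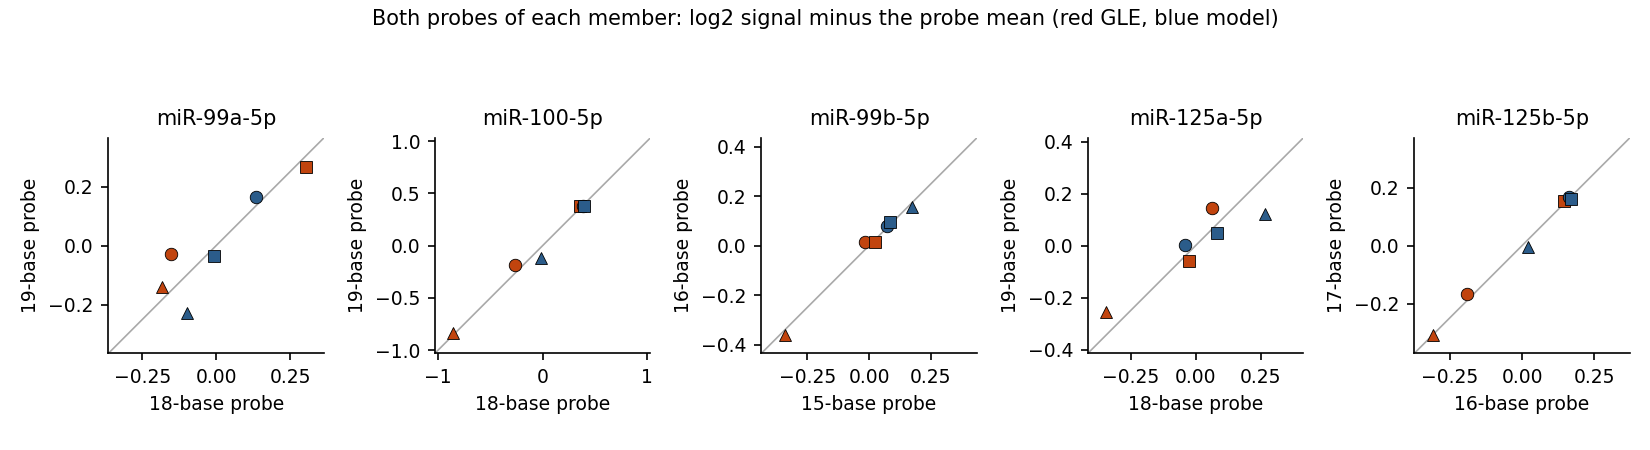
For each member, the centred log2 signal of the shorter probe (x axis) is set against that of the longer probe (y axis), with 1 point per array (red GLE, blue model; circle, square and triangle for replicates 1, 2 and 3) and a line of equality. The points of miR-100-5p, miR-99b-5p and miR-125b-5p lie along the line, and those of miR-99a-5p and miR-125a-5p scatter around it.

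The design compared tumours of GLE-treated mice with those of the model group. Values are log2 signal relative to the 75th percentile of the array, and differences are GLE minus model ± SE of the limma fit. Levels are compared within a miRNA only, since probes differ in brightness. None of the 5 members passed the test (limma, Benjamini-Hochberg adjustment over all 388 tested miRNAs, threshold 0.05), which called 0 of 388 miRNAs, or 0%. At an unadjusted p under 0.05 there were also 0 members, against 6 of 388 miRNAs, or 1.55%. The difference was negative for 4 members and slightly positive for miR-99a-5p, with a median of −0.22 over the members and 0.0078 over all tested miRNAs, of which 49% were negative.

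Of the members with the miR-99 and miR-100 seed, miR-100-5p, a growth-restraining miRNA made from the cluster on chromosome 9, had log2 signals of 0.76, 1.35 and 0.14 across GLE tumours 1 to 3, as against 1.37, 1.38 and 0.92 across model tumours 1 to 3. GLE tumour 2 lay within the model range, and the other GLE tumours lay below it. Group means were 0.75 ± 0.61 for GLE and 1.22 ± 0.26 for model tumours (SD, n = 3 each), a difference of −0.47 ± 0.32. That is a 0.722-fold level with a 95% interval of 0.426 to 1.22 (limma adjusted p = 0.935). Over the 6 tumours miR-100-5p spanned 2.36-fold, the widest range of the members, with an SD larger than that of 80.4% of tested miRNAs. Without GLE tumour 3 its difference was −0.16, and without GLE tumour 2 it was −0.77 (limma adjusted p = 0.100).

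miR-99a-5p, which shares the seed of miR-100-5p and lies in the cluster on chromosome 16, had a difference near 0. Its log2 signals were 0.097, 0.47 and 0.027 across GLE tumours 1 to 3, with 0.34, 0.17 and 0.024 across model tumours 1 to 3. The groups overlapped almost completely. Group means were 0.20 ± 0.24 for GLE and 0.18 ± 0.16 for model tumours (SD, n = 3 each), a difference of 0.023 ± 0.19 with a 95% interval of −0.43 to 0.48. Its sign turned to negative when arrays were scaled by the percentile of all probes (−0.065), by quantiles (−0.055) or by the median of detected probes (−0.041), and with the dimmer probe alone (−0.020).

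miR-99b-5p, the member of the cluster on chromosome 17, was the one member whose groups did not overlap. Its log2 signals were −0.43, −0.41 and −0.79 across GLE tumours 1 to 3, as against −0.36, −0.35 and −0.27 across model tumours 1 to 3. The gap between the groups was 0.056. Group means were −0.54 ± 0.21 for GLE and −0.32 ± 0.048 for model tumours (SD, n = 3 each), a difference of −0.22 ± 0.17 or 0.858-fold, with an interval of 0.647 to 1.14-fold (limma adjusted p = 0.935). Among all tested miRNAs, 8 of 388, or 2.06%, had every GLE value below every model value, and 6.7% had groups that did not overlap in either direction. The groups of miR-99b-5p overlapped with the 75th percentile over all probes, without scaling and in the authors' deposited table, and stayed apart in 6 of the 9 alternatives with all arrays that moved its value. Without GLE tumour 3 its difference was −0.10.

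The miR-125 members ranged less widely than miR-100-5p. miR-125b-5p, a regulator of apoptosis and of blood cell differentiation, had log2 signals of 2.56, 2.89 and 2.43 across GLE tumours 1 to 3, with 2.90, 2.90 and 2.75 across model tumours 1 to 3. As with miR-100-5p, GLE tumour 2 lay within the model range and the other GLE tumours lay below it. Group means were 2.63 ± 0.24 for GLE and 2.85 ± 0.091 for model tumours (SD, n = 3 each), a difference of −0.22 ± 0.18 with a 95% interval of −0.66 to 0.21 (limma adjusted p = 0.935). miR-125a-5p had log2 signals of 0.078, −0.066 and −0.32 across GLE tumours 1 to 3, with −0.043, 0.042 and 0.17 across model tumours 1 to 3. GLE tumour 1 lay within the model range, and the other GLE values lay below it. Its difference was −0.16 ± 0.18 with a 95% interval of −0.58 to 0.26. Without GLE tumour 3 the difference of miR-125b-5p was −0.13 and that of miR-125a-5p was −0.050. Without GLE tumour 2, miR-125b-5p was at −0.36.

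**Figure D2:**
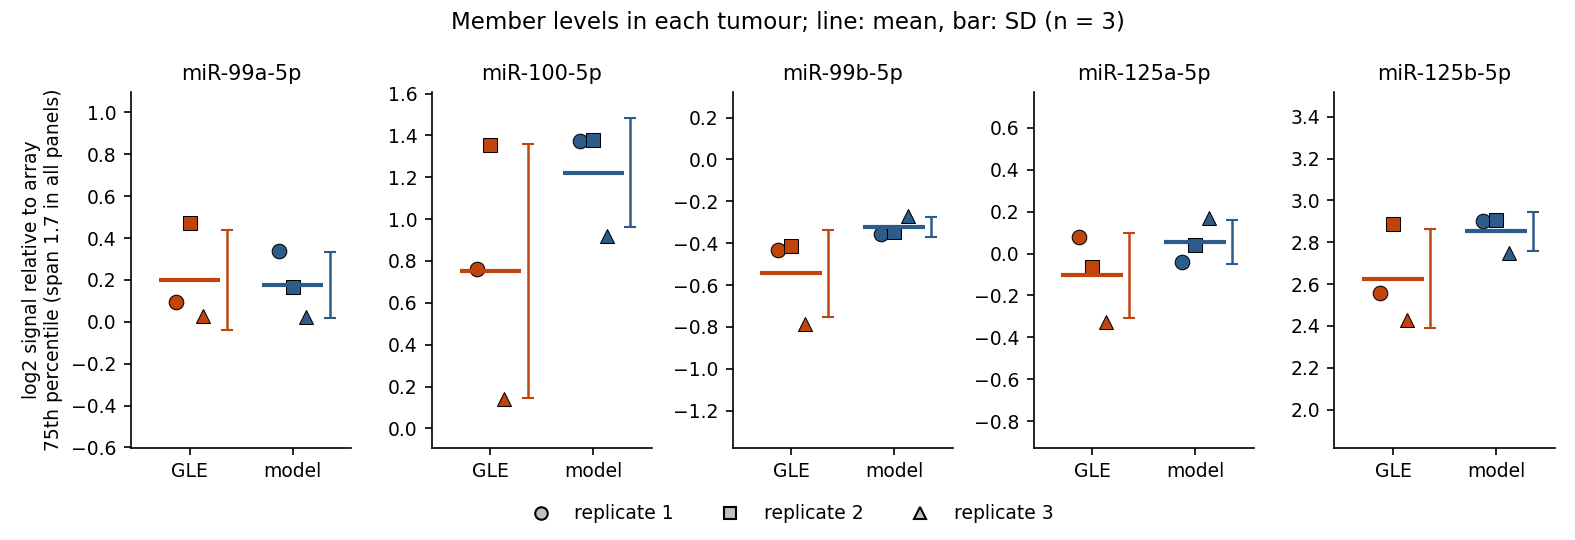
Log2 signal of each member relative to the 75th percentile of the array (y axis, the same span in every panel) in GLE tumours (red) and model tumours (blue), with 1 point per tumour, a line at the group mean and a bar for the SD (n = 3). GLE tumour 3 is the lowest of all tumours for miR-100-5p, miR-99b-5p, miR-125a-5p and miR-125b-5p, and the model values of miR-99b-5p lie close together.

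Differences between members on the same array do not depend on a scaling factor, and they were used to ask whether members of the same or of separate clusters responded unequally. For each of the 10 pairs, an exact two-sided permutation test used the 20 ways to relabel the tumours, and could not give a p below 0.1. A p under 0.05 was therefore out of reach. The zero point of each within-array difference depends on the probes and carries no meaning. In 2 of the 10 pairs the groups did not overlap, against 8.45% of the 75078 pairs that all tested miRNAs form. The 10 pairs share members and are too few to set apart from that share.

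miR-99a-5p minus miR-100-5p was −0.67, −0.88 and −0.11 across GLE tumours 1 to 3, as against −1.03, −1.21 and −0.90 across model tumours 1 to 3. Relative to miR-100-5p, miR-99a-5p was thus higher on every GLE array, by a mean of 0.49 (exact permutation p = 0.1, 0.5 after adjustment over the 10 pairs). The groups were narrowly apart, with −0.882 in GLE tumour 2 and −0.897 in model tumour 3. In the other such pair, whose members share the cluster on chromosome 16, miR-99a-5p minus miR-125b-5p was −2.46, −2.42 and −2.40 across GLE tumours 1 to 3, as against −2.57, −2.74 and −2.72 across model tumours 1 to 3. The mean shift was 0.25 (exact permutation p = 0.1, adjusted 0.5), with an SD of 0.031 over GLE tumours and 0.095 over model tumours. Of the 11 alternatives that kept all arrays, 6 could move such a difference, since a scaling factor cancels in it. In those 6, miR-99a-5p minus miR-125b-5p stayed apart, while miR-99a-5p minus miR-100-5p stayed apart in 4 and overlapped with normexp background and with the brightest probe alone. The mean shift of miR-99a-5p minus miR-100-5p was 0.27 without GLE tumour 3.

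The remaining pairs overlapped between the groups. Within the compact cluster on chromosome 17, miR-99b-5p minus miR-125a-5p averaged −0.44 ± 0.085 for GLE and −0.38 ± 0.062 for model tumours (SD, n = 3 each), a shift of −0.060 (exact permutation p = 0.4; −0.11 without GLE tumour 2 and −0.024 without GLE tumour 1). In the cluster on chromosome 9, miR-100-5p minus miR-125b-5p averaged −1.87 ± 0.38 in GLE tumours and −1.63 ± 0.17 in model tumours, a shift of −0.25 (exact permutation p = 0.5) that was −0.037 without GLE tumour 3 and −0.42 without GLE tumour 2. Between clusters, the shift was 0.24 for miR-99a-5p minus miR-99b-5p (exact permutation p = 0.2; 0.14 without model tumour 3) and 0.0044 for miR-99b-5p minus miR-125b-5p (exact permutation p = 1).

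**Figure D3:**
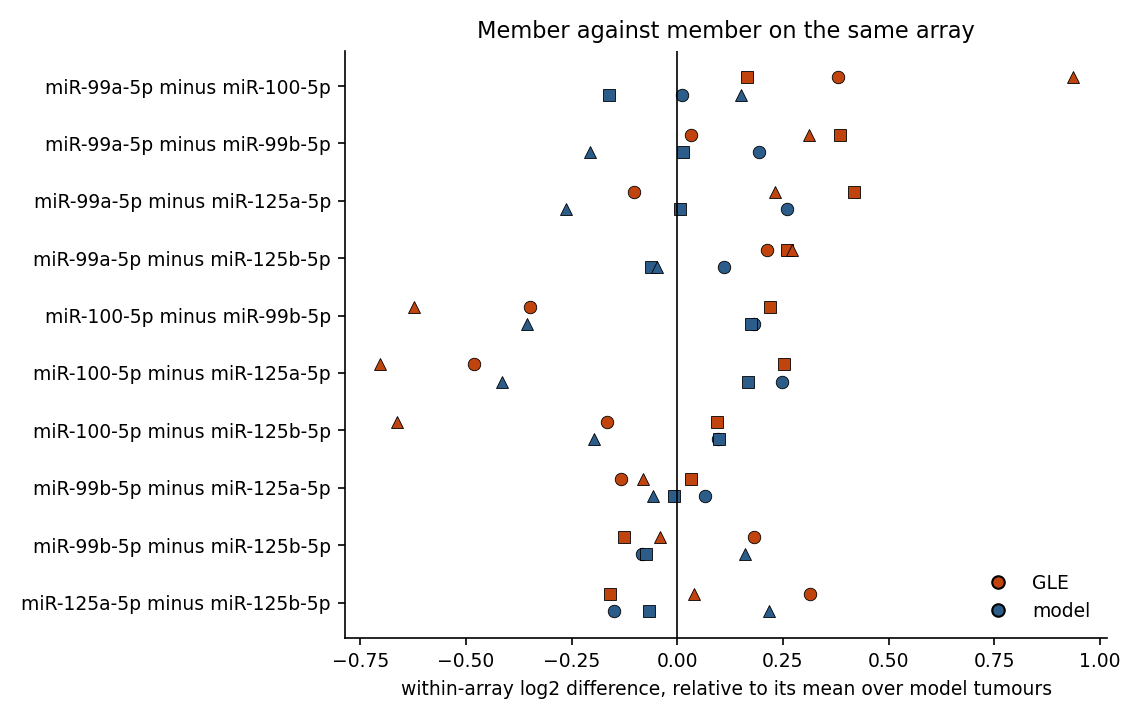
Within-array log2 difference between members for all 10 pairs, relative to its mean over model tumours (x axis), with GLE tumours (red) above model tumours (blue) in each line and circle, square and triangle for replicates 1, 2 and 3. The colours separate for miR-99a-5p minus miR-100-5p and for miR-99a-5p minus miR-125b-5p, and overlap in the other 8 pairs.

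Members were then followed from tumour to tumour, to see whether those of a shared cluster vary together. The 16 relations were the 10 pairs of members and 6 pairs of a member with the let-7 of its cluster, each over 6 arrays with exact permutation over 720 pairings. The points of all relations share the same 6 RNAs and scaling factors, and no batch could be separated because slide and scan were common to all arrays. One relation of the 16 passed after adjustment, that of miR-100-5p with miR-125b-5p, which share the cluster on chromosome 9. Pearson's r was 0.974 (exact permutation p = 0.0014, the smallest these pairings can give, adjusted p = 0.0222) and Spearman's rho was 1.00 (exact permutation p = 0.0028, adjusted p = 0.0444). Without the 2 arrays farthest from the median, GLE tumours 1 and 3, r was 0.999. On the same arrays, miRNAs outside the clusters correlated with miR-100-5p at higher r, namely miR-30d-5p (0.992), miR-30c-5p (0.989) and miR-196b-5p (0.989). Those miRNAs were picked for having the highest r with miR-100-5p outside the members. The share of all pairs of tested miRNAs that reach such an r was not computed. Whether the value is particular to a shared cluster was therefore not tested. The call was lost with quantile normalisation (r = 0.854, adjusted p = 0.12), in the authors' deposited table (r = 0.839, adjusted p = 0.114) and with the brightest probe alone (r = 0.971, adjusted p = 0.0667). In the other direction, 11 of the 16 relations passed when arrays were scaled by the percentile of all probes, and all 16 without scaling, pairs from separate clusters included.

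In the cluster on chromosome 16, miR-99a-5p and let-7c-5p correlated at r = 0.798 (exact permutation p = 0.0458, adjusted p = 0.164; rho = 0.829, exact permutation p = 0.0583, adjusted p = 0.467), and at 0.747 without GLE tumour 2 and model tumour 1. miR-125b-5p and let-7c-5p correlated at r = 0.940 (exact permutation p = 0.00833, adjusted p = 0.0667; rho = 0.771, exact permutation p = 0.103, adjusted p = 0.467), and at 0.909 without GLE tumours 1 and 3. For miR-99a-5p and miR-125b-5p, r was 0.700 (exact permutation p = 0.125, adjusted p = 0.209; rho = 0.600, exact permutation p = 0.242, adjusted p = 0.483), and 0.633 without GLE tumour 2 and model tumour 1. None of these passed after adjustment. In the cluster on chromosome 9, r with let-7a-5p was 0.765 for miR-100-5p (exact permutation p = 0.0667, adjusted p = 0.178; rho = 0.486, exact permutation p = 0.356, adjusted p = 0.569; 0.707 without GLE tumours 1 and 3). It was 0.654 for miR-125b-5p (exact permutation p = 0.167, adjusted p = 0.242; rho = 0.486, exact permutation p = 0.356, adjusted p = 0.569; 0.677 without the same arrays).

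In the cluster on chromosome 17, miR-99b-5p and miR-125a-5p correlated at r = 0.913 (exact permutation p = 0.0292, adjusted p = 0.156; rho = 0.657, exact permutation p = 0.175, adjusted p = 0.467). Without GLE tumour 3 and model tumour 3, r was −0.170, so the relation rests on those samples. miR-99b-5p and let-7e-5p gave r = 0.845 (exact permutation p = 0.131, adjusted p = 0.209; rho = 0.143, exact permutation p = 0.803, adjusted p = 0.917) and −0.133 without the same arrays. miR-125a-5p and let-7e-5p gave r = 0.679 (exact permutation p = 0.190, adjusted p = 0.254; rho = 0.086, exact permutation p = 0.919, adjusted p = 0.919) and −0.822 without those arrays, so both relations with let-7e-5p also rest on them.

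Pairs of members from separate clusters had r of −0.057 to 0.805, and none of them passed. Pairs of a shared cluster had r of 0.654 to 0.974 with the let-7 relations included, and of 0.700 to 0.974 between members alone. No member was set against the let-7 of another cluster, so the let-7 relations have no counterpart among separate clusters. Whether the 2 kinds of pair differ was not tested. For miR-100-5p and miR-99b-5p, r was 0.805 (exact permutation p = 0.0847, adjusted p = 0.189; rho = 0.657, exact permutation p = 0.175, adjusted p = 0.467), but −0.843 without GLE tumours 1 and 3. For miR-99b-5p and miR-125b-5p it was 0.764 (exact permutation p = 0.0514, adjusted p = 0.164; rho = 0.657, exact permutation p = 0.175, adjusted p = 0.467), and 0.754 without GLE tumour 3 and model tumour 3. For miR-99a-5p and miR-100-5p it was 0.720 (exact permutation p = 0.0944, adjusted p = 0.189; rho = 0.600, exact permutation p = 0.242, adjusted p = 0.483), and 0.746 without GLE tumour 2 and model tumour 1. The remaining pairs were miR-100-5p with miR-125a-5p at 0.532, miR-125a-5p with miR-125b-5p at 0.450, miR-99a-5p with miR-99b-5p at 0.274 and miR-99a-5p with miR-125a-5p at −0.057 (exact permutation p = 0.293, 0.376, 0.649 and 0.904, in the order named). The last sign turned to positive under the other scalings.

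**Figure D4:**
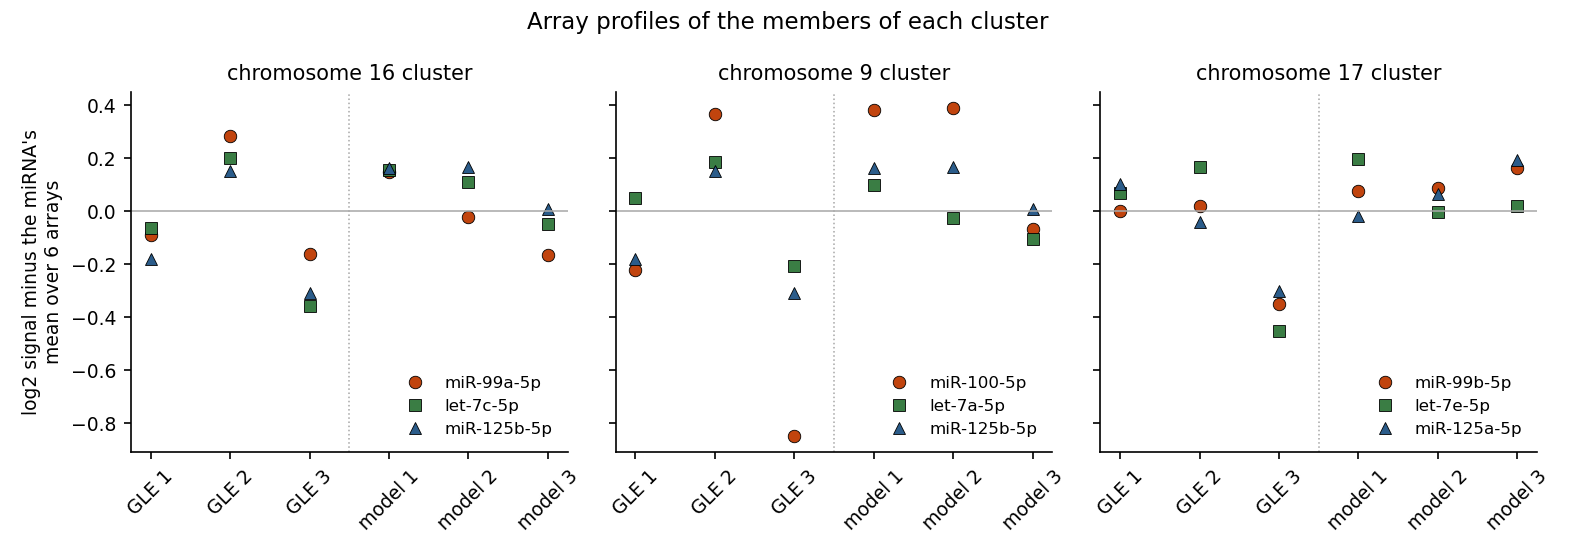
Log2 signal of each member and let-7 partner minus its own mean over 6 arrays (y axis), for the 3 GLE and 3 model tumours (x axis), with 1 panel per cluster and miR-125b-5p drawn in both clusters that encode it (circles for the miR-99 or miR-100 member, squares for let-7, triangles for miR-125). GLE tumour 3 lies lowest in the clusters on chromosomes 9 and 17, and miR-100-5p has the widest swing.

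Of the let-7 family, whose members oppose growth and which is drawn here from a list of 9, all 9 were tested and 0 passed, while 0 had an unadjusted p under 0.05 (limma). Their median difference was 0.020, with 4 negative and 5 positive, and that median was −0.068 with the 75th percentile over all probes. The partner let-7c-5p had log2 signals of 3.31, 3.57 and 3.01 across GLE tumours 1 to 3, with 3.53, 3.48 and 3.33 across model tumours 1 to 3, a difference of −0.15 ± 0.20. That difference was −0.0035 without GLE tumour 3, −0.28 without GLE tumour 2 and −0.30 in the authors' deposited table. The difference was −0.14 ± 0.21 for let-7e-5p, of the cluster on chromosome 17 (0.046 without GLE tumour 3), and 0.020 ± 0.18 for let-7a-5p, whose sign turned under 2 other scalings. The family members with no gene in these clusters included let-7g-5p and let-7i-5p, whose GLE values all lay above their model values. let-7g-5p had 1.87, 1.83 and 1.83 across GLE tumours 1 to 3, as against 1.71, 1.56 and 1.58 across model tumours 1 to 3, a difference of 0.22 ± 0.15. let-7i-5p differed by 0.23 ± 0.16, and neither passed (limma adjusted p = 0.935 for both). Over all tested miRNAs, 4.64% had every GLE value above every model value.

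The opposite arms of the hairpins, the strands that are mostly discarded, were largely below detection. Of the 9 arms listed for the members and their let-7 partners, 7 were detected on 0 arrays, among them miR-99a-3p, miR-100-3p, miR-125b-1-3p and miR-125b-2-3p. The 3p arms specific to a single miR-125b copy were thus not measurable, and the copies could not be told apart by them. Both measurable arms belong to the cluster on chromosome 17. miR-125a-3p had log2 signals of −1.64, −1.68 and −1.40 across GLE tumours 1 to 3, with −1.59, −1.35 and −1.40 across model tumours 1 to 3, a difference of −0.13 ± 0.17. miR-99b-3p differed by −0.082 ± 0.19. The groups overlapped for both arms.

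miR-351-5p, a rodent relative that has the miR-125 seed on chromosome X, was detected on 0 arrays, so the seed CCCUGAG was measured through the miR-125 members alone. The miR-10 family resembles miR-99 and miR-100 in sequence. Its miR-10a-5p differed by −0.098 ± 0.23. miR-10b-5p had −1.61, −2.39 and −1.30 across GLE tumours 1 to 3, with −2.52, −2.75 and −2.21 across model tumours 1 to 3, a difference of 0.72 ± 0.31 (limma unadjusted p = 0.0509, adjusted p = 0.935). GLE tumour 2 lay within the model range of miR-10b-5p, as it did for miR-100-5p.

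**Figure D5:**
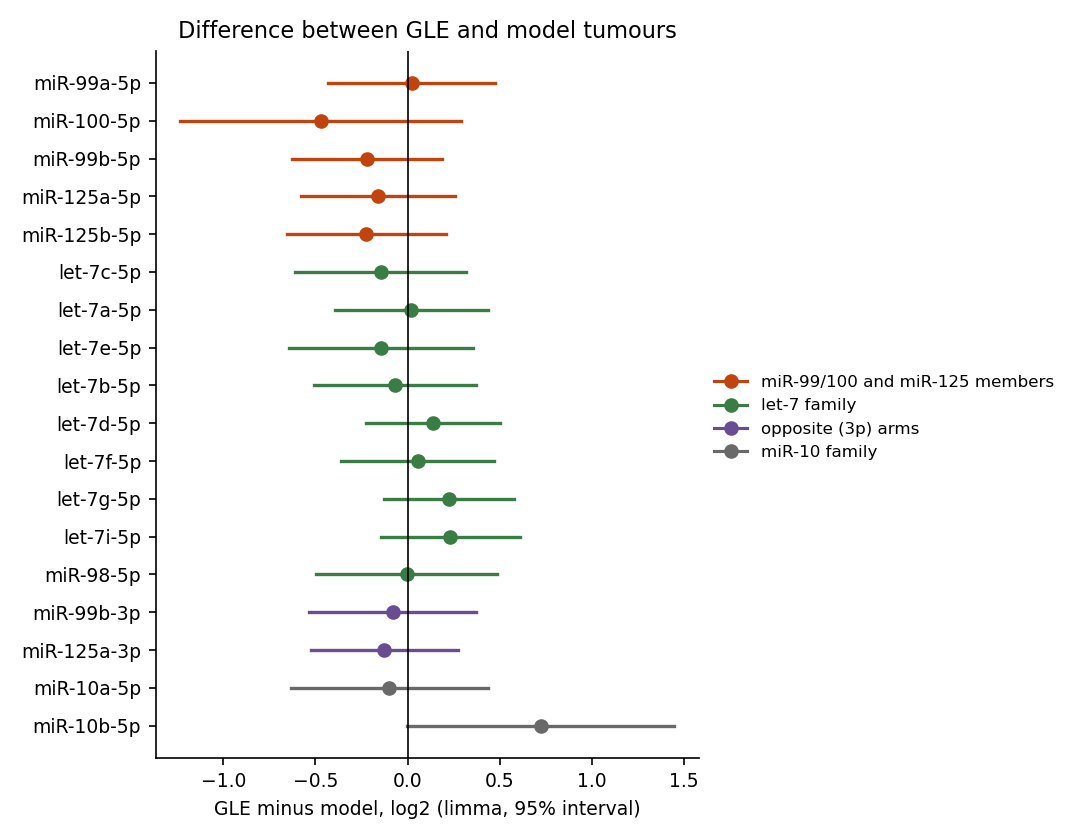
GLE minus model difference on the log2 scale with its 95% interval from limma (x axis) for the members (red), the let-7 family (green), the measurable opposite arms (purple) and the miR-10 family (grey). Every interval includes 0, that of miR-100-5p is the widest among the members, and that of miR-10b-5p ends at −0.0038.

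The miRNAs whose array profile was most like that of a member were found by Pearson's r over the 6 arrays, as a description. For miR-100-5p they were miR-30d-5p (0.992), miR-30c-5p (0.989) and miR-196b-5p (0.989), and for miR-125b-5p they were miR-135b-5p (0.970), miR-196b-5p (0.965) and miR-3473a (0.963). miR-196b-5p stood on both lists, with a difference of −0.58. For miR-99a-5p they were the liver and gut miRNAs miR-192-5p (0.982) and miR-194-5p (0.967), followed by miR-26b-5p (0.956). For miR-99b-5p they were miR-677-3p (0.975), miR-344b-3p (0.953) and miR-193a-3p (0.948), and for miR-125a-5p they were miR-5122 (0.948), miR-320-3p (0.937) and miR-677-3p (0.936). miR-194-5p in model tumour 3 and miR-344b-3p in GLE tumour 3 stood at −4.25, the floor that the processing set on the log2 scale. The lists of most alike miRNAs depended on the scaling. None of the 3 stayed among the first 3 without scaling for any member but miR-100-5p, with quantile normalisation for miR-99a-5p, with the percentile over all probes for miR-125b-5p, with normexp for miR-125a-5p, and in the authors' deposited table for miR-125a-5p and miR-125b-5p. For miR-100-5p, 1 stayed without scaling and at least 2 in the other alternatives.

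Markers of other cells differed in level from tumour to tumour as well. All 7 immune markers were tested, from miR-142a-3p to miR-342-3p, all with positive differences that did not pass. Over all tested miRNAs, 49% of the differences were negative. Each of the 7 was highest in GLE tumour 3, so they do not count as separate readings. Their mean log2 signal was −0.16, −1.02 and 0.38 across GLE tumours 1 to 3, with −1.14, −1.26 and −0.66 across model tumours 1 to 3. The tumour with the lowest miR-100-5p, GLE tumour 3, thus had the highest immune mean. The lowest immune mean was that of model tumour 2. Its miR-100-5p, at 1.376, was the highest by little, with 1.372 in model tumour 1 and 1.354 in GLE tumour 2. The summed immune signal was 5.73 to 16.1 in GLE tumours and 4.72 to 7.38 in model tumours, in units of the 75th percentile of the array. Sums of this kind weigh the markers with the brightest probes most, and are given as a description. The 6 fibroblast and smooth muscle markers, all tested and 5 with positive differences that did not pass, summed to 1.62 to 5.22 in GLE tumours and 1.42 to 2.26 in model tumours, also with the highest value in GLE tumour 3.

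The mean of the 2 tested epithelial markers was lowest in GLE tumour 3, where the immune mean was highest. Of the 6 listed, miR-200a-3p and miR-200b-3p were tested and miR-200c-3p and miR-141-3p were detected on 0 arrays. miR-203-3p was detected in 2 GLE and 2 model tumours and miR-205-5p in 1 model tumour, and neither was tested. The mean of the tested pair was 0.21, 1.89 and −1.01 across GLE tumours 1 to 3, with 1.50, 1.12 and 0.29 across model tumours 1 to 3. Its lowest value, like that of miR-100-5p, was in GLE tumour 3, and its sum was 1.08 to 7.81 in GLE and 2.80 to 6.09 in model tumours. The mean of the 3 tested hepatocyte markers of 6, which include the miR-192-5p and miR-194-5p named above, was −2.53, −0.29 and −2.98 across GLE tumours 1 to 3, with −1.62, −2.20 and −2.91 across model tumours 1 to 3, with its highest values in GLE tumour 2 and model tumour 1, as for miR-99a-5p. Their sum was 0.551 to 2.61 in GLE and 0.709 to 1.22 in model tumours. The 2 arrays with the highest hepatocyte mean are also the arrays of highest unscaled signal, at 364 and 313 intensity units. The part of these cells and of array brightness in the members' values was not tested. Neuronal markers were near background: miR-9-5p and miR-124-3p were detected on 0 arrays. The endothelial miR-126a-3p was at 2.87 to 4.0 in GLE and 2.30 to 2.71 in model tumours, in the same units. Its log2 difference of 0.49 did not pass. Every GLE value of miR-126a-3p lay above every model value, as for 4.64% of all tested miRNAs. The other endothelial marker listed, miR-126a-5p, was detected in 2 GLE tumours and 1 model tumour and was not tested. The 4 muscle markers summed to 1.30 to 4.45 in GLE and 0.807 to 2.00 in model tumours. Both tested erythrocyte markers of 3 summed to 2.90 to 10.67 in GLE and 4.18 to 12.2 in model tumours, and the neuronal miR-128-3p, the 1 tested of 3, to 0.0773 to 0.124 in GLE and 0.0750 to 0.0919 in model tumours.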

How the data were processed

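Tumour miRNA of 6 mice was read on one-colour Agilent arrays. Per the file headers, the deposited intensity files come from Agilent Feature Extraction 10.7.1.1 (build mm9) and hold each spot's intensity with background and a spatial trend subtracted, unscaled between arrays. The authors also deposited log2 values per miRNA, made by steps that no source used here states. In GLE tumours 1 to 3 their medians were −3.20, −3.32 and −3.27, with −3.32, −3.17 and −3.13 in model tumours, each equal to the lowest value of the array. Their centring is unknown, and they served as an alternative.

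Control and outlier spots (1401 to 1883 outliers an array) were removed, 0 spots were saturated, and the remaining spots were averaged per probe. Detection required that more than a share of 0.5 of a probe's spots lay well above background. Arrays were scaled to the 75th percentile of the 636 probes detected throughout, floored at −4.25 on the log2 scale, and logged. Probes detected on every array of a group were averaged into the miRNA's value. Groups were compared with limma 3.58.1 in R 4.3.3 (lmFit, eBayes, 4 residual and 3.05 prior degrees of freedom) over 388 miRNAs, and permutation tests ran in Python 3.11.15. The fits were tested on simulated data. Alternatives covered background, scaling, probes, filters, the deposited table, a replicate block and each array left out. Named miRNAs are the members, the let-7, opposite arm, seed and miR-10 lists, cell markers, and the 3 miRNAs most like each member. Members and lists were chosen with earlier results of these data known. The labels state no pairing of the mice by number. Deviations of same-numbered arrays from their group means correlated at r = −0.620, −0.184 and 0.375 for numbers 1, 2 and 3. These values are too few to exclude a pairing. Per the labels, every array is a separate mouse.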

Additional observations from a re-analysis of the deposited data

How the results depend on the processing

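The differences of miR-100-5p, miR-99b-5p, miR-125a-5p and miR-125b-5p were negative and missed the threshold in all alternatives run, and ran from −0.58 to −0.39, −0.31 to −0.15, −0.26 to −0.085 and −0.41 to −0.15 with all arrays kept. With an array left out they ran from −0.77 to −0.16, −0.29 to −0.10, −0.25 to −0.050 and −0.36 to −0.13. The count of called miRNAs was 0 with all arrays kept, and 0 to 2 with an array left out (2 without GLE tumour 2, which left 107 at an unadjusted p under 0.05). With the replicate number as a block it was 0, with 17 at an unadjusted p under 0.05 (limma), and the block changed no call. For miR-100-5p the blocked difference was −0.47 (limma adjusted p = 0.931). The number also marks the slide column, and whether it pairs the mice could not be settled. No fit with slide or scan as a block was possible, since all arrays share both.

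With an array left out, miR-99a-5p ran from −0.11 (GLE tumour 2 out) to 0.11 and was −0.053 with model tumour 3 out. It was −0.065 with the percentile over all probes, −0.055 with quantile normalisation, −0.041 with the median of detected probes and −0.020 with the dimmer probe alone, an alternative added after the data were seen. let-7a-5p was −0.068, −0.044, −0.0028 and −0.0079 with the percentile over all probes, the median, outlier spots kept and the dimmer probe, and with an array left out it ran from −0.069 to 0.13, negative with GLE tumour 1 (−0.00033), GLE tumour 2 or model tumour 3 (−0.027) out. let-7f-5p was −0.034 and −0.0091 with the percentile over all probes and the median, and ran from −0.032 to 0.17 with an array left out. With an array left out, let-7e-5p ran from −0.26 to 0.046, let-7b-5p from −0.15 to 0.061, miR-98-5p from −0.14 to 0.15, miR-99b-3p from −0.23 to 0.033 and miR-10a-5p from −0.28 to 0.028, with GLE tumour 3 out at the upper end of the first 4. let-7b-5p was 0.0068 without scaling and 0.011 in the authors' deposited table, and miR-98-5p 0.070 without scaling and 0.0055 with the brightest probe.

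miR-99b-5p minus miR-125b-5p was −0.0015 with outlier spots kept, −0.0044 with the brightest probe and −0.070 in the authors' deposited table, and −0.084 to 0.084 with an array left out. miR-125a-5p minus miR-125b-5p was −0.060 to 0.18 with an array left out.

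With the percentile over all probes, 10 more relations passed: miR-99a-5p with miR-100-5p (r = 0.874), miR-125b-5p (0.892) and let-7c-5p (0.925), miR-99b-5p with miR-100-5p (0.898), miR-125a-5p (0.970), miR-125b-5p (0.916) and let-7e-5p (0.923), miR-125b-5p with let-7c-5p (0.977) and let-7a-5p (0.902), and miR-100-5p with let-7a-5p (0.919). Without scaling, all 16 passed, at 0.861, 0.917, 0.908, 0.956 and 0.969 for miR-99a-5p with miR-100-5p, miR-99b-5p, miR-125a-5p, miR-125b-5p and let-7c-5p, at 0.967, 0.953 and 0.877 for miR-100-5p with miR-99b-5p, miR-125a-5p and let-7a-5p, at 0.994, 0.975 and 0.981 for miR-99b-5p with miR-125a-5p, miR-125b-5p and let-7e-5p, at 0.954, 0.989 and 0.947 for miR-125b-5p with miR-125a-5p, let-7c-5p and let-7a-5p, and at 0.986 for miR-125a-5p with let-7e-5p. Unscaled values share the brightness of their array by construction. miR-125b-5p with let-7c-5p also passed with the median (0.967), normexp (0.957) and outlier spots kept (0.944), and miR-99b-5p with miR-125a-5p with normexp (0.936). miR-100-5p with miR-125b-5p did not pass with quantile normalisation (0.854), the deposited table (0.839) or the brightest probe (0.971). miR-99a-5p with miR-125a-5p was positive with the percentile over all probes (0.576), quantile normalisation (0.359), the median (0.363), outlier spots kept (0.0642) and the dimmer probe (0.0674). The cause of these changes was not tested. Correlations were not recomputed with each array left out in turn. They were given again without the 2 arrays farthest from the median, and those values rest on 4 arrays.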
